A study of Rattus norvegicus with 22 samples.

Results

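The resting work of spinal cord astrocytes was read here from 7 genes: Aqp4, Slc4a4, Gja1, Slc1a2, Slc1a3, Glul and S100b. Every probe set that the array annotation assigns to 1 of these genes was taken, whatever its values, which gave 17 of the 31042 tested probe sets. There are 3 each for Aqp4, Gja1, Slc1a3 and Glul, 2 each for Slc4a4 and Slc1a2, and 1 for S100b. Each gene was matched to RefSeq by its Entrez number. On the rat assembly GRCr8 they lie at chr18:6782389-6799034 (Aqp4), chr14:19125394-19577379 (Slc4a4), chr20:36302490-36315010 (Gja1), chr3:109460109-109590445 (Slc1a2), chr2:59482707-59557808 (Slc1a3), chr13:68519500-68585554 (Glul) and chr20:12372345-12381159 (S100b). Where each probe set falls within its gene, in an exon or an untranslated region, was not analysed here.

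Astrocytes clear glutamate from synapses with the transporters of Slc1a2 (GLT-1) and Slc1a3 (GLAST) and turn it into glutamine with glutamine synthetase, the product of Glul. Their endfeet around blood vessels carry the water channel aquaporin-4 (Aqp4), their membranes the sodium bicarbonate cotransporter NBCe1 (Slc4a4), and their gap junctions connexin 43 (Gja1), which couples them into a network. S100b encodes a calcium-binding protein abundant in mature astrocytes, and oligodendrocytes can also make Glul and S100b.

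RNA of rat spinal cord was hybridized to 22 Affymetrix rat genome arrays in 8 groups. Uninjured cord is represented by 3 arrays of normal rats and 3 of rats with laminectomy, the opening of the vertebral arch without a blow. The contused groups all received a weight of 10 g with a tip of 2.5 mm, dropped from 25 mm on the cord at thoracic level 10, with cord taken 24 h later. Of these 16 arrays, 2 come from contusion without a further agent. After contusion, 2 arrays come from rats given clenbuterol, an agonist of beta-2 adrenergic receptors (150 mg/kg), and 3 from rats irradiated with X-rays (10 Gy). Tempol, a nitroxide that scavenges radicals, was given for a further 3 arrays (275 mg/kg), and each of these agents came 20 min after injury. Buthionine sulfoximine (BSO), which blocks glutathione synthesis, was given for 3 arrays at 150 mg/kg and 24 h before injury, and tempol plus BSO for 3 more. The clenbuterol dose is as labelled and very high for this drug. The times at which normal and laminectomized cord were taken are not in the labels, nor do they say that each array is a different animal. The p-values therefore speak of spread among these arrays, which may be technical. The series asks how treatments thought to act through glutathione alter gene expression after contusion.

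The deposited signals were compared as log2 values, and all signals and differences below are on that scale unless called a fold. Laminectomy 2 and normal 1 stood apart from the other 20 arrays, with median correlations to the rest of 0.667 and 0.685 against 0.725 to 0.785. Their hybridization spikes were also the brightest (mean log2 of 14.00 and 13.02, elsewhere 10.81 to 12.80). The log2 ratio of the 3′ to the 5′ end of GAPDH RNA, a sign of RNA quality, was highest in normal 1 (1.49, elsewhere -0.20 to 0.85), and that of actin RNA in laminectomy 2 (1.38, elsewhere -0.06 to 1.06). For all contused against all uninjured cord, results are given with and without them where that ends a call. Listed genes in other comparisons were not refitted without them. A probe set with 1 gene symbol was found for 14 of 15 astrocyte, 13 of 13 neuron and 11 of 12 oligodendrocyte markers. These counts are set by the array design, so they do not test the tissue label. Of the 14 astrocyte markers 5 had a mean below the median of all probe sets, as did 1 of 13 neuron and 0 of 11 oligodendrocyte markers. The log2 of the summed astrocyte markers ran from 15.10 to 15.65 in normal cord. In bulk cord, fewer astrocytes and less RNA per astrocyte cannot be told apart.

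Against uninjured cord, contused cord had less signal in the brightest probe sets of the bicarbonate cotransporter and the water channel. Over all 6 contused groups, each weighted alike, against the mean of normal and laminectomy, Slc4a4 (probe set 1372479_at) fell by 1.36 ± 0.26 (2.57-fold lower, adjusted p = 0.0257). The brightest Aqp4 probe set (1372190_at) fell by 1.23 ± 0.26 (2.34-fold lower, adjusted p = 0.0482). Values after ± here are standard errors. These were 2 of 17 probe sets past the threshold, an adjusted p of 0.05 by Benjamini-Hochberg over all 31042, where 0.319% of all probe sets passed and 0.106% passed as lower. Neither passed by limma without laminectomy 2 and normal 1 (adjusted p = 0.177 for Slc4a4 and 0.184 for Aqp4), and the other Aqp4 probe sets showed no such fall. With all arrays, 7 of 17 were at unadjusted p under 0.05, against 10.4% of all probe sets. The other 5 were connexin 43, S100b and the 3 probe sets of Glul, none past the adjusted threshold. The members had 9 differences below and 8 above 0, with a median of -0.22 against 0.00 over all probe sets.

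**Figure D1:**
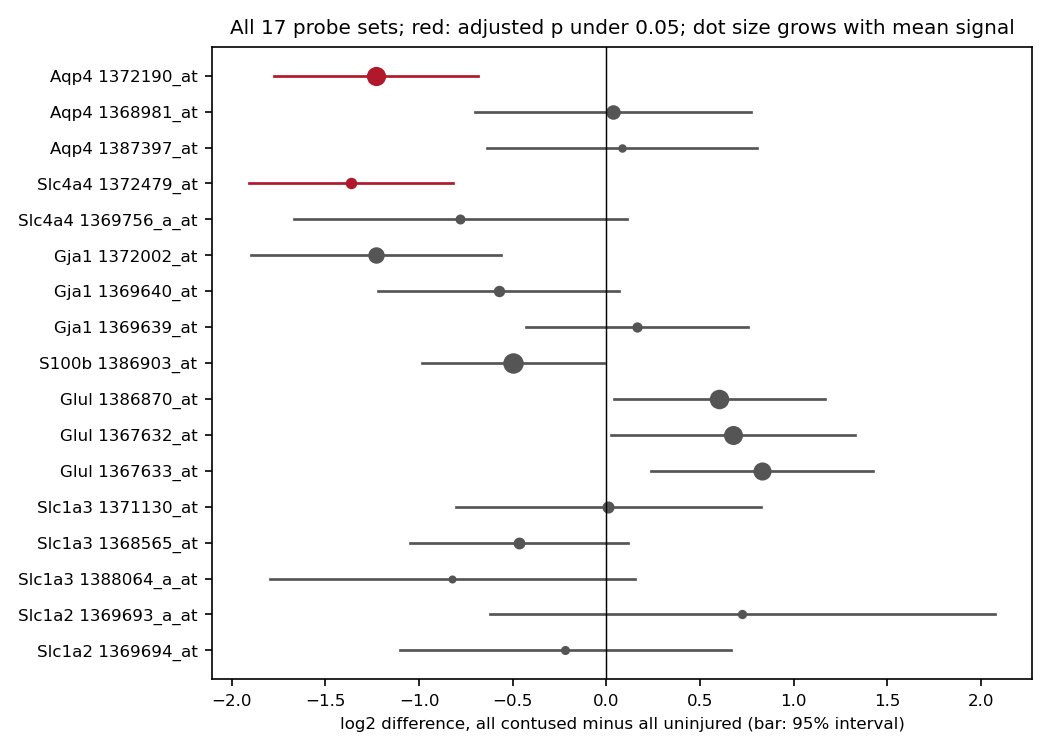
Difference in log2 signal between all contused and all uninjured groups for each of the 17 probe sets (dot) with its 95% interval (bar). Red marks the 2 past the adjusted threshold, Aqp4 1372190_at and Slc4a4 1372479_at, and the 3 Glul probe sets lie to the right of 0.

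Aquaporin-4, the astrocytic water channel, was read by 3 probe sets that did not behave alike. Probe set 1372190_at is annotated by an expressed sequence tag. Its log2 signals were 12.60, 13.32 and 12.35 in normal cord and 12.09, 12.99 and 12.44 after laminectomy. Contusion gave 10.59 and 11.34. With clenbuterol the signals were 12.46 and 12.45, and with X-ray 11.93, 12.34 and 12.20. Tempol gave 10.19, 10.90 and 11.52, BSO 10.34, 10.94 and 11.13, and tempol plus BSO 11.15, 11.57 and 10.79. The contused arrays thus fell into a lower set of 11, from contusion, tempol, BSO and tempol plus BSO, which did not reach the uninjured range, and the 5 arrays of clenbuterol and X-ray, of which 1 lay below it. In all, 12 of 16 contused arrays lay below the lowest uninjured array.

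The other Aqp4 probe sets showed no such difference between contused and uninjured cord. For 1368981_at, annotated by an mRNA record, the contused arrays ran from 7.48 through a median of 9.43 to 10.75 and the uninjured arrays from 8.45 through 9.44 to 10.56. The difference was 0.04 ± 0.35 (95% interval -0.70 to 0.77, adjusted p = 0.982). For 1387397_at, annotated by a RefSeq mRNA, it was 0.08 ± 0.34 (95% interval -0.64 to 0.80, adjusted p = 0.958). That probe set was dim, with a mean of 6.57 where the median of all probe sets was 7.13. Over the 22 arrays the Aqp4 probe sets correlated with each other at 0.32 to 0.55. The mean of the 3 probe sets differed by -0.37 ± 0.26 between contused and uninjured cord (adjusted p = 0.618), so the Aqp4 call rests on 1 of its 3 probe sets.

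**Figure D2:**
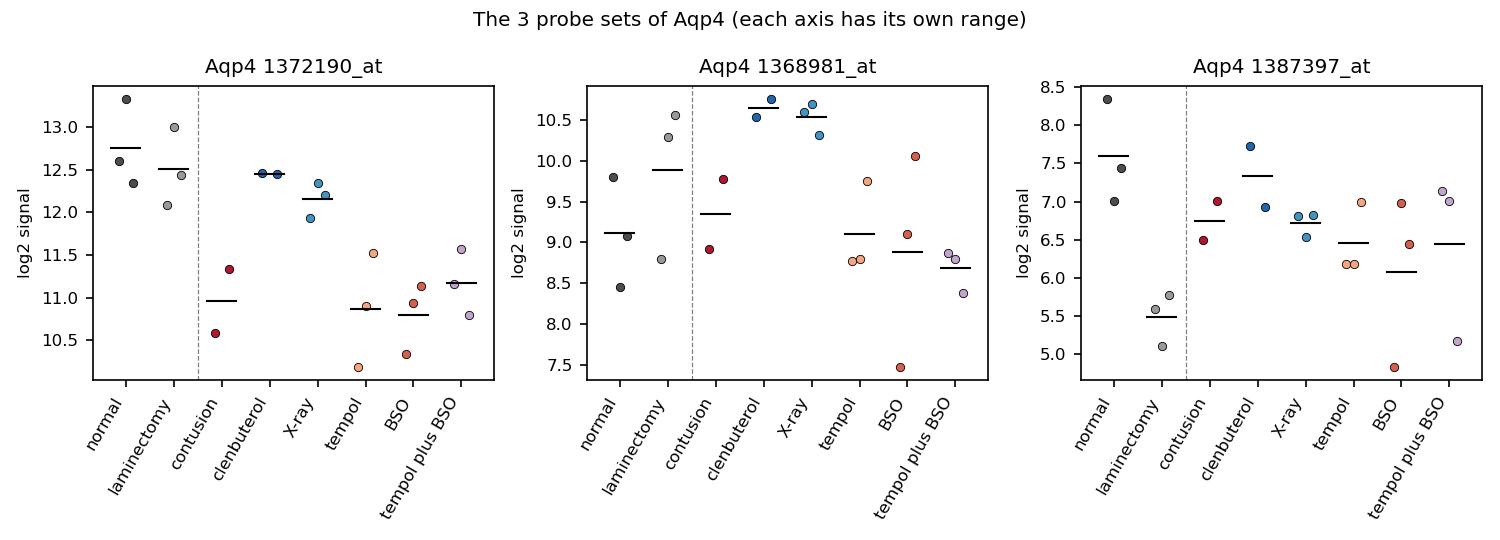
Log2 signal of the 3 Aqp4 probe sets in each array (points) and group (bar, mean), with uninjured groups left of the dashed line. In 1372190_at and 1368981_at all 5 clenbuterol and X-ray arrays lie above the 9 arrays of tempol, BSO and tempol plus BSO, and in 1387397_at the 3 laminectomy arrays lie below the 3 normal arrays.

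The Aqp4 call was close to the threshold. It held in only 1 of the 22 fits that left out 1 array each (without tempol 3), with adjusted p from 0.0403 to 0.143. Without both laminectomy 2 and normal 1 the difference was -1.15 (adjusted p = 0.184). Against laminectomy alone it was -1.10 (adjusted p = 0.479) and against normal alone -1.35 (adjusted p = 0.118). The part of RNA quality in this difference was not tested beyond leaving out those arrays.

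Slc4a4, the electrogenic bicarbonate cotransporter, had the clearer difference. Probe set 1372479_at, annotated by an expressed sequence tag, had log2 signals of 10.01, 9.34 and 8.82 in normal cord and 8.11, 9.02 and 8.68 after laminectomy. Contusion gave 7.23 and 7.15. The clenbuterol arrays were at 8.10 and 8.23, the X-ray arrays at 7.14, 7.94 and 7.29, and the tempol arrays at 7.21, 7.38 and 7.34. BSO gave 6.96, 8.35 and 7.79, and tempol plus BSO 8.40, 7.58 and 7.95. Of the 16 contused arrays 13 lay below the lowest uninjured array, laminectomy 1, and all 16 lay below the uninjured median. In the other probe set of the gene, 1369756_a_at, the difference was -0.78 ± 0.42 (adjusted p = 0.542), with normal 1 the highest array at 9.81. The mean of both probe sets differed by -1.07 ± 0.29 (adjusted p = 0.109).

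The Slc4a4 call held in 17 of 22 fits without 1 array. It was lost without laminectomy 2 (adjusted p = 0.0802), laminectomy 3 (0.0718), contusion 1 (0.0515), normal 1 (0.0882) or normal 2 (0.0607). Without laminectomy 2 and normal 1 together the difference was -1.10 (adjusted p = 0.177). Against normal alone it was -1.76 (adjusted p = 0.0268), and against laminectomy alone -0.97 (adjusted p = 0.541).

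Connexin 43, the main gap junction protein of astrocytes, ran close to these genes in its brightest probe set, 1372002_at. Normal cord had 12.29, 11.08 and 10.84 and laminectomized cord 10.50, 12.09 and 10.96. Contusion gave 9.44 and 10.19. The contused arrays spread from 9.19 through a median of 10.19 to 10.78, and 12 of 16 lay below the lowest uninjured array. The 2 arrays that stood apart, normal 1 and laminectomy 2, were the highest of all for this probe set. The difference was -1.23 ± 0.32 (adjusted p = 0.129). Among the alternative settings it passed only with a filter to the upper part of mean signal (adjusted p = 0.0478) and with a variance trend (adjusted p = 0.0482). Over the alternatives the difference ran from -1.40 to -0.78. It was smallest, and did not pass, without laminectomy 2 and normal 1 together. The other probe sets of Gja1 gave -0.58 ± 0.31 (1369640_at, adjusted p = 0.533) and 0.16 ± 0.28 (1369639_at, adjusted p = 0.886), and correlations between the 3 ran from -0.18 to 0.21. The probe sets of connexin 43 therefore did not track each other over the arrays.

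Glul, which makes glutamine from glutamate and ammonia, stood on the other side of 0. The brightest probe set, 1386870_at, had 11.70, 10.72 and 11.77 in normal cord, 10.90, 11.86 and 11.79 after laminectomy, and 11.65 and 11.94 after contusion. Clenbuterol gave 12.99 and 12.39, and X-ray 12.97, 12.56 and 12.56. Tempol gave 11.38, 11.30 and 11.71, BSO 10.98, 12.28 and 12.05, and tempol plus BSO 12.55, 11.65 and 11.60. All 5 clenbuterol and X-ray arrays were above the highest uninjured array, as were contusion 2, BSO 2, BSO 3 and tempol plus BSO 1, whereas the 3 tempol arrays lay within the uninjured range. In all, 9 of 16 contused arrays lay above it, as did 10 in 1367633_at. In 1367632_at 3 of 16 did, and clenbuterol 2, X-ray 2 and X-ray 3 lay below laminectomy 2 (12.39). Contused minus uninjured was 0.60 ± 0.27 (adjusted p = 0.439) in 1386870_at. It was 0.68 ± 0.31 (adjusted p = 0.459) in 1367632_at and 0.83 ± 0.28 (adjusted p = 0.278) in 1367633_at. These 3 probe sets correlated with each other at 0.70 to 0.85 over the 22 arrays, the closest of any of the 6 genes with more than 1 probe set, and none passed the threshold in any alternative of this comparison.

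The glutamate transporters gave little to read. Both Slc1a2 probe sets, for GLT-1, were near the middle of all probe sets in brightness, with means of 6.97 and 6.85. In 1369693_a_at normal cord had 7.35, 5.13 and 5.60, laminectomized cord 8.21, 4.41 and 8.50, contusion 7.72 and 9.37, and tempol 5.56, 5.66 and 3.79. Its values spread over 5.59 and its moderated standard deviation was 1.34, so that contused minus uninjured was 0.73 with a 95% interval from -0.62 to 2.07 (adjusted p = 0.737). In 1369694_at it was -0.22 ± 0.42 (adjusted p = 0.899), with tempol plus BSO 2 the lowest array at 3.61. The 2 probe sets correlated at -0.20.

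For Slc1a3, which encodes GLAST, the difference was -0.47 ± 0.28 in 1368565_at (adjusted p = 0.583), with 9 of 16 contused arrays below the lowest uninjured array. It was 0.01 ± 0.39 in 1371130_at (adjusted p = 0.995) and -0.82 ± 0.47 in 1388064_a_at (adjusted p = 0.561). The 2 brighter probe sets, 1371130_at and 1368565_at, correlated at -0.56 over the arrays. Neither transporter had a probe set past the threshold in any comparison.

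S100b, the calcium-binding marker, was read by 1 probe set, 1386903_at, with 13.46, 12.75 and 12.18 in normal cord and 12.29, 13.04 and 12.57 after laminectomy. Contusion gave 12.13 and 11.94. Clenbuterol gave 13.16 and 12.78 and X-ray 12.96, 13.11 and 12.77. Tempol gave 11.40, 11.48 and 11.90, BSO 11.32, 11.77 and 12.07, and tempol plus BSO 12.01, 12.21 and 11.90. As with Aqp4 1372190_at, the clenbuterol and X-ray arrays stood with the uninjured arrays and apart from the other contused arrays. Over all contused groups the difference was -0.50 ± 0.23 (adjusted p = 0.468).

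**Figure D3:**
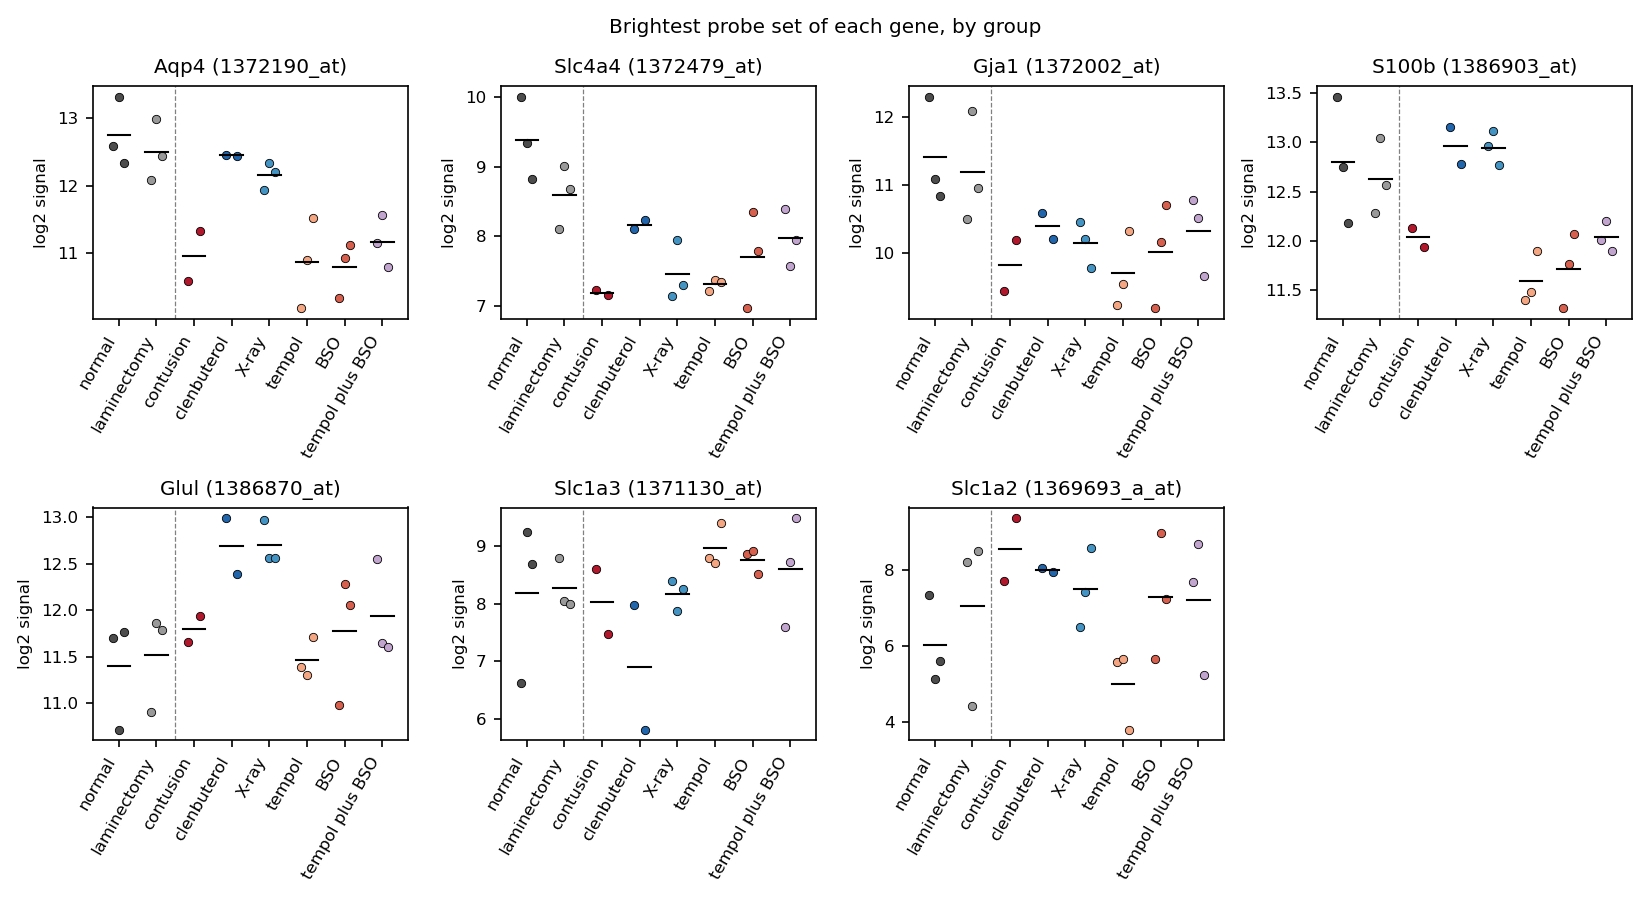
Log2 signal of the brightest probe set of each gene in all 22 arrays (points), with the mean of each group (bar) and the uninjured groups left of the dashed line. For Aqp4, Slc4a4 and Gja1 the means of the 6 contused groups lie below those of both uninjured groups. For Aqp4 and S100b the clenbuterol and X-ray arrays do not join the other contused arrays, and the axes differ between panels.

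Between laminectomy and normal cord the members' differences ran from -2.10 to 1.01, with 0 of 17 probe sets past the threshold by limma (0.00644% of all) and 1 at unadjusted p under 0.05 (5.59% of all). That 1 was the dim Aqp4 1387397_at, at 5.60, 5.11 and 5.78 after laminectomy against 8.34, 7.01 and 7.44 in normal cord, a difference of -2.10 ± 0.58 (adjusted p = 0.589). It was also the only 1 of the 17 that lay lower after laminectomy without overlap, where 4.14% of all probe sets did. Brighter Aqp4 probe sets differed by -0.25 ± 0.44 (1372190_at) and 0.77 ± 0.60 (1368981_at). Slc4a4 1372479_at differed by -0.79 ± 0.44 (95% interval -1.71 to 0.13), and its laminectomy mean lay between the means of normal and all contused groups. Glul 1367632_at differed by 0.96 ± 0.53 (95% interval -0.14 to 2.07). With 3 arrays against 3, the Slc4a4 interval reaches the difference of all contused from all uninjured cord (-1.36) but not that of contusion from normal cord (-2.20).

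Contusion without an agent, with 2 arrays, was set against laminectomy and against normal cord. The comparisons share the contusion arrays. Against laminectomy 0 of 17 passed by limma (0.00322% of all), with 3 at unadjusted p under 0.05 (5.38% of all). They were Aqp4 1372190_at (-1.55 ± 0.49, adjusted p = 0.916), Slc4a4 1372479_at (-1.41 ± 0.49, adjusted p = 0.916) and Gja1 1372002_at (-1.37 ± 0.61, adjusted p = 0.925). Against normal cord 0 of 17 passed (0.0483% of all), with 4 at unadjusted p under 0.05 by limma (6.65% of all). Slc4a4 1372479_at differed by -2.20 ± 0.49 (4.60-fold lower, adjusted p = 0.167), Aqp4 1372190_at by -1.79 ± 0.49 (adjusted p = 0.315), Gja1 1372002_at by -1.59 ± 0.61 (adjusted p = 0.601) and Gja1 1369640_at by -1.32 ± 0.58 (adjusted p = 0.688). In the first 3 of these probe sets both contusion arrays lay below every uninjured array. Of the 17 probe sets 6 lay lower without overlap against laminectomy, as did 10.3% of all, and 8 against normal cord, as did 11.6% of all.

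The agents were compared with contusion alone, and these 5 comparisons share the 2 contusion arrays. Among the members 0 of 17 passed in each of them by limma. The share of all probe sets that passed was 0.00322% for clenbuterol and 0% for each of the other 4. At unadjusted p under 0.05, where all probe sets gave 5.36% for clenbuterol, 4.81% for X-ray, 2.82% for tempol, 3.46% for BSO and 3.98% for the combination, there was 1 member for clenbuterol. It was Aqp4 1372190_at at 1.49 ± 0.54 (2.81-fold, adjusted p = 0.844). The same probe set was the only 1 for X-ray, at 1.20 ± 0.49 (2.29-fold, adjusted p = 1.000). Tempol also had 1, Slc1a2 1369693_a_at at -3.54 ± 1.22, in a probe set that spread by several log2 units within groups. BSO and tempol plus BSO had 0 at unadjusted p under 0.05, and Aqp4 1372190_at differed by -0.16 ± 0.49 and 0.21 ± 0.49. The 95% intervals of that probe set reached from -1.19 to 0.87 for BSO and from -0.82 to 1.24 for tempol plus BSO. Differences of that size could not be resolved with 2 contusion arrays. The F test of any agent against contusion by limma also called 0 of 17 (0% of all), with 5.60% of all probe sets at unadjusted p under 0.05 and the smallest p for Aqp4 1372190_at (0.00813, adjusted p = 0.701) and S100b (0.0109, adjusted p = 0.722).

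Each contused group was next set against the mean of normal and laminectomy, a comparison chosen after the values were seen, in which all 6 groups share the uninjured arrays. By limma 0 of 17 passed in each, where 0.0193% of all probe sets passed for contusion, 0.0677% for clenbuterol, 0.145% for X-ray, 0.00322% for tempol, 0.0387% for BSO and 0.0483% for tempol plus BSO. At unadjusted p under 0.05 there were 4, 2, 5, 5, 5 and 3 of 17 in the same order, against 5.89%, 7.33%, 9.50%, 7.17%, 7.27% and 7.02% of all. For Aqp4 1372190_at the differences were -1.67 ± 0.44 for contusion, -1.76 ± 0.38 for tempol, -1.83 ± 0.38 for BSO and -1.46 ± 0.38 for tempol plus BSO, but -0.18 ± 0.44 for clenbuterol and -0.47 ± 0.38 for X-ray. Slc4a4 1372479_at differed by -1.81 ± 0.44, -1.69 ± 0.38, -1.30 ± 0.38 and -1.02 ± 0.38 in the same 4 groups. It differed by -0.83 ± 0.44 with clenbuterol and by -1.54 ± 0.38 with X-ray. Gja1 1372002_at lay between -1.59 and -0.90 in all 6. In these probe sets the X-ray arrays lay near the uninjured arrays for Aqp4 and with the other contused arrays for Slc4a4. In Aqp4 1368981_at, however, the X-ray mean lay above the uninjured mean by 1.04 ± 0.52 (adjusted p = 0.552). The arrays overlapped, with X-ray 3 at 10.32 and laminectomy 3 at 10.56. The clenbuterol mean of that probe set was 10.64 and the X-ray mean 10.53. Glul 1367633_at lay above uninjured cord by 1.41 ± 0.48 with clenbuterol (adjusted p = 0.479) and by 1.56 ± 0.42 with X-ray (adjusted p = 0.185). With tempol that difference was 0.22 ± 0.42.

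**Figure D4:**
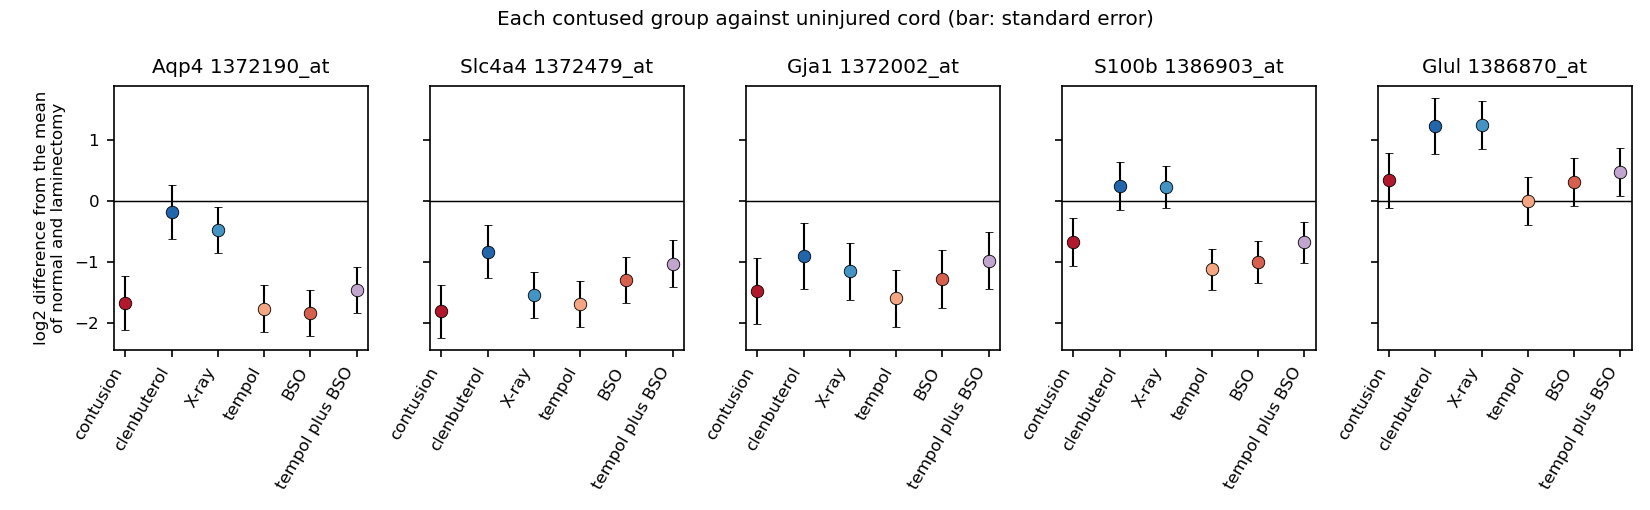
Difference in log2 signal of each contused group from the mean of normal and laminectomy (point) with its standard error (bar), for the brightest probe sets of 5 genes. Aqp4, S100b and Glul are higher in clenbuterol and X-ray than in the other 4 groups, Gja1 lies between -1.59 and -0.90 throughout, and the groups share their uninjured arrays.

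The separation of clenbuterol and X-ray from tempol, BSO and tempol plus BSO was then fitted as a contrast of its own, also chosen after the values were seen. Among the members 0 of 17 passed by limma (0.0515% of all), with 6 at unadjusted p under 0.05 against 11.1% of all probe sets. The median difference was 0.62 against -0.04 over all probe sets, with 15 of 17 above 0. Aqp4 1372190_at was at 11.93 to 12.46 in the 5 arrays and at 10.19 to 11.57 in the 9, a difference of 1.36 ± 0.30 (2.56-fold, adjusted p = 0.109). Aqp4 1368981_at was at 10.32 to 10.75 against 7.48 to 10.06 (1.70 ± 0.41, 3.24-fold, adjusted p = 0.136). S100b was at 12.77 to 13.16 against 11.32 to 12.21 (1.17 ± 0.27, 2.25-fold, adjusted p = 0.116). In these 3 of 17 probe sets the arrays did not overlap, where 0.367% of all probe sets lay higher without overlap. Glul 1386870_at and 1367633_at differed by 0.97 ± 0.32 (adjusted p = 0.260) and 0.96 ± 0.33 (adjusted p = 0.286). Slc1a3 1371130_at ran the other way at -1.25 ± 0.46 (adjusted p = 0.311), and Slc4a4 1372479_at and Gja1 1372002_at differed by 0.15 ± 0.30 and 0.26 ± 0.37.

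Other measures were read in the same separation. None of the summed oligodendrocyte, macrophage or neutrophil marker levels set all 5 arrays apart from the 9. The log2 of the summed astrocyte markers did, at 15.34 to 15.48 against 14.19 to 15.13. That sum holds the 7 genes themselves and Gfap. All 11 measured oligodendrocyte markers were above 0 in the separation (median 0.59, 0 past the threshold), the largest being the myelin lipid enzyme gene Ugt8 at 1.25 ± 0.25 (adjusted p = 0.0695). Their summed log2 level was 15.75 to 16.30 with clenbuterol and 15.37 to 15.81 with X-ray, against 14.96 to 15.93 with tempol, 14.88 to 16.03 with BSO and 15.09 to 15.71 with tempol plus BSO. Macrophage markers had a median of -0.34 in the separation, with 7 of 10 below 0. Their summed level was 13.20 to 13.22 with clenbuterol, below all 9 arrays of the other side (13.57 to 14.20), and 14.01 to 14.30 with X-ray. The summed neutrophil markers were at 11.55 to 11.98 with X-ray, above all 9 (10.12 to 11.38), and at 10.40 to 11.14 with clenbuterol. Of the 13 neuron markers 8 lay below and 5 above 0, with 3 lower and 1 higher at unadjusted p under 0.05, against 11.1% of all probe sets. Of the fibroblast markers 5 of 6 lay below 0, 1 of them at unadjusted p under 0.05. In neither list did any pass by limma. The log2 ratio of the 3′ to the 5′ end of actin RNA was 0.47 to 0.61 in the 5 arrays, within the range of 0.02 to 1.06 in the 9. That of GAPDH was -0.20 to 0.02 with clenbuterol, below the 0.16 to 0.85 of the 9 arrays, and 0.23 to 0.65 with X-ray, within it. Of the other homeostatic astrocyte genes 18 of 22 lay above 0 (median 0.45, 0 past the threshold), with the acyl-CoA synthetase gene Acsbg1 at 0.95 ± 0.29 (adjusted p = 0.235). The part of these other cell types and of RNA quality in the Aqp4, S100b and Glul differences was not tested.

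The order of the 8 groups was the same at the top for Aqp4 1372190_at, Slc4a4 1372479_at and Gja1 1372002_at, running from normal through laminectomy to clenbuterol. It ended in BSO for Aqp4, contusion for Slc4a4 and tempol for Gja1. S100b had clenbuterol and X-ray first and tempol last, and Glul 1386870_at had X-ray and clenbuterol first and normal last. Neighbours in these orders mostly lay closer than the spread between arrays: of 119 neighbour gaps over the 17 probe sets, 9 exceeded the moderated standard deviation and 0 passed the adjusted threshold by limma, with 1 at unadjusted p under 0.05. That 1 was the step of 0.98 from X-ray down to tempol plus BSO in Aqp4 1372190_at (adjusted p = 0.659). Over all 28 pairs of groups, 0 of 476 member tests passed by limma (0.0185% of all), with 87 at unadjusted p under 0.05 (6.01% of all).

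Across the 22 arrays, which share groups, labelling and scaling, the brightest probe sets of Aqp4 and S100b correlated at 0.85 and those of Slc4a4 and Gja1 at 0.83. Without laminectomy 2 and normal 1 these were 0.83 and 0.73. Within the 16 contused arrays Aqp4 and S100b correlated at 0.91, Glul and S100b at 0.86 and Aqp4 and Glul at 0.79, whereas Slc4a4 and Gja1 were at 0.54. Over all arrays Glul and Aqp4 were at 0.16. These are descriptions and were not tested.

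The genes with the most similar pattern were sought among 9074 others with a mean above the median of all probe sets. For Aqp4 the closest were Nacc2 (0.88), Gpm6b (0.88) and Scd2 (0.87). Scd2, a fatty acid desaturase gene, was also closest to S100b (0.95), followed by Itm2c (0.93) and Sirt2 (0.89). Slc4a4 was closest to Cplx1 (0.87), a synaptic gene, Epb41l1 (0.86) and Glrb (0.86), a glycine receptor gene, and these correlations were 0.77, 0.78 and 0.77 without laminectomy 2 and normal 1. Gja1 was closest to Ccni (0.95), Zwint (0.94) and S1pr1 (0.94), and Glul to Riok3 (0.92), Lck (0.84) and Pde2a (0.82). Slc1a2 (Fam181b at 0.78) and Slc1a3 (Nfatc3 at 0.79) had no gene above 0.80.

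Upstream sequence is shown for Slc4a4 and Gja1, whose brightest probe sets had every contused group mean below both uninjured means. It is also shown for Glul, where contused minus uninjured was above 0 in each probe set. The brightest Aqp4 probe set also had every contused mean below both uninjured means, but the Aqp4 window is not shown. The sequences come from RefSeq on GRCr8, 5′ to 3′, from the 250 bases before an annotated start. The Slc4a4 window (chr14:19468283-19468532, minus strand) lies within the span of the gene, the Glul window (chr13:68519250-68519499, plus strand) lies before it, and for Gja1 (chr20:36302314-36302489, plus strand) the last 74 bases, inside the gene, are left out. Capitals mark the letters CCAAT read on the opposite strand.
Slc4a4: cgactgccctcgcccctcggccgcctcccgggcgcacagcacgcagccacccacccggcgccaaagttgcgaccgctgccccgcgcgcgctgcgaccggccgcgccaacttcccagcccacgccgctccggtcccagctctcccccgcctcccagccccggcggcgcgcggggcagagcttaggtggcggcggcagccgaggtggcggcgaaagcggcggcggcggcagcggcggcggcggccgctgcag
Gja1: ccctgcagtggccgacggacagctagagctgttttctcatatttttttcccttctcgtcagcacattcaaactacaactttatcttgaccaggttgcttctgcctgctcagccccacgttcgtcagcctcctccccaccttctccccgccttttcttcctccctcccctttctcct
Glul: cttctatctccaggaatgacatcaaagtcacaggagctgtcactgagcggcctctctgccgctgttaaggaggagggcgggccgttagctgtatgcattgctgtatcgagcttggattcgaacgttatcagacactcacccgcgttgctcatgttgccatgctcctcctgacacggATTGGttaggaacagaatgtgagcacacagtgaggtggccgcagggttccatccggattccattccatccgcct

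The 3 windows differ in composition, with G or C at 80.8% of bases for Slc4a4, 53.4% for Gja1 and 54.4% for Glul. The whole windows of all 7 genes were searched on both strands for AP-1 (TGANTCA), STAT (TTCNNNGAA), the palindromes of NFI and of the glucocorticoid receptor, CCAAT and TATAAA. AP-1 letters were found for Gja1 alone, as TGAGTCA from 58 to 52 bases before the start, in the part not shown, and in 6.34% of all 33469 windows. CCAAT was found for Aqp4, Glul and S100b and in 34.0% of all windows. The other motifs were found in none of the 7 genes and in 7.67% (STAT), 0.0359% (NFI), 0.0120% (glucocorticoid receptor) and 12.9% (TATAAA) of windows. A match describes letters only, and the Slc4a4 window held none of the 6 motifs.

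Other genes of these functions, from lists of names, were read in the contrast of contused against uninjured cord, all groups included, where 0.319% of all probe sets passed and 10.4% had an unadjusted p under 0.05. Without laminectomy 2 and normal 1, 0.254% passed, 76 of them higher and 3 lower. Of the other homeostatic astrocyte genes 1 of 22 fell and 0 rose, with 18 below 0 and a median of -0.64, which was -0.35 without laminectomy 2 and normal 1. The 1 was the tight junction gene Cldn10 (-1.35 ± 0.25, adjusted p = 0.0207), which also passed without those 2 arrays. The glycine transporter gene Slc6a9 differed by -1.29 ± 0.33 (adjusted p = 0.130) and the metabotropic glutamate receptor gene Grm3 by -1.83 ± 0.50 (adjusted p = 0.149). Of 17 genes that handle glutamate and glutamine 0 passed by limma, with 4 at unadjusted p under 0.05 and 16 below 0 (median -0.39). Glutamate dehydrogenase, Glud1, came closest at -1.20 ± 0.26 (adjusted p = 0.0607).

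Among 14 other water channel and endfoot genes 0 passed, with 3 at unadjusted p under 0.05 by limma and a median of 0.01. Kcnj10, the potassium channel that shares the endfoot with aquaporin-4, differed by -1.03 ± 0.44 (adjusted p = 0.417), and the laminin gene Lama2 by 1.27 ± 0.52 (adjusted p = 0.382). Of 9 other connexin, pannexin and scaffold genes 0 passed, with 2 at unadjusted p under 0.05 by limma. The second astrocyte connexin gene, Gjb6, differed by -1.30 ± 0.49 (adjusted p = 0.339) and the endothelial connexin gene Gja5 by 0.86 ± 0.24 (adjusted p = 0.170). Of 11 bicarbonate, proton and lactate genes 0 passed, again with 2 at unadjusted p under 0.05 by limma, the carbonic anhydrase gene Car2 at -0.89 ± 0.37 (adjusted p = 0.405) and the lactate carrier gene Slc16a3 at 0.94 ± 0.44 (adjusted p = 0.474).

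Reactive astrocyte genes lay mostly above 0 in the same contrast, with 3 of 18 risen, 0 fallen and a median of 0.73. The protease inhibitor gene Timp1 rose by 3.25 ± 0.37 (adjusted p = 0.000166), the membrane protein gene Emp1 by 1.56 ± 0.28 (adjusted p = 0.0139) and the lipopolysaccharide co-receptor gene Cd14 by 1.40 ± 0.25 (adjusted p = 0.0146). Without laminectomy 2 and normal 1 only Timp1 and Emp1 passed in this list. The list also differed between the uninjured groups. In laminectomy minus normal all 18 lay above 0 (median 1.68), and 2 rose, Timp1 by 5.41 ± 0.62 (adjusted p = 0.00174) and the heat shock gene Hspb1 by 3.35 ± 0.49 (adjusted p = 0.0245). These 2 calls were not refitted without laminectomy 2 and normal 1. In contusion minus laminectomy 9 lay above and 9 below 0 (median -0.01), and 0 passed by limma, with 3 at unadjusted p under 0.05. Cd14 is also a gene of monocytes and macrophages.

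Markers of other cell types moved in the same comparison. All 13 neuron markers lay below 0 (median -0.62), and the neurofilament gene Nefl fell by 1.49 ± 0.29 (adjusted p = 0.0319), but did not pass without laminectomy 2 and normal 1. Their summed log2 level was 14.57 to 15.31 in normal and 14.20 to 15.02 in laminectomized cord against 12.6 to 14.4 in contused cord. All 11 oligodendrocyte markers lay below 0 (median -0.60), with Ugt8 at -1.39 ± 0.21 (adjusted p = 0.00427) and the myelin glycoprotein gene Omg at -2.18 ± 0.34 (adjusted p = 0.00585), and both also passed without those arrays. Of 5 oligodendrocyte progenitor markers 1 fell, Olig1 (-1.06 ± 0.22, adjusted p = 0.0441), and 0 without those arrays. Macrophage markers had 3 of 10 risen, neutrophil markers 2 of 4 and red cell markers 1 of 4, and 4, 1 and 1 without those arrays. The 1 red cell gene was Hbb, a globin gene with close copies, at 2.99 ± 0.34 (adjusted p = 0.000166). Microglia, endothelium, ependyma, fibroblast and Schwann cell markers had 0 past the threshold by limma, of 6, 6, 4, 6 and 2, with 0, 1, 0, 1 and 1 at unadjusted p under 0.05. The summed astrocyte markers, which hold the 7 genes here and Gfap, ran from 14.63 to 14.81 after contusion and from 15.34 to 15.48 with clenbuterol and X-ray. With tempol, BSO or tempol plus BSO they ran from 14.19 to 15.13. The part of other cell types in the Slc4a4 and Aqp4 differences was not tested.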

How the data were processed

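The deposited signal intensity of each probe set is on a linear scale with 1 value per array. RMA is named in the submitters' processing notes, with no version, yet the values are linear and their distributions differ between arrays. Column medians ran from 142.9 to 164.9, and each array's mean after trimming 2% at either end was 249.991 to 250.051, so scale and centring are read from the values. No source used here says how background was corrected. The deposited intensity was taken to log2. The 57 control probe sets of 31099 were not tested, and they hold the only 2 empty cells. Of the 31042 others, 20826 have 1 gene symbol, 436 several and 9780 none.

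R 4.3.3 and limma 3.58.1 fitted 8 group means over all 22 arrays (14 residual and 4.71 prior degrees of freedom), with two-sided p-values adjusted by Benjamini-Hochberg over 31042 probe sets. A moderated F test covered the 5 agents against contusion. The fit was tested on simulated data. Each listed gene was read from its probe set with the highest mean.

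The 7 genes and the lists were chosen with earlier results of these data known. By rule the text names every probe set of the 7 genes, up to 4 genes of a list (those past the threshold, then the smallest p), and the 3 genes closest in pattern to each member. Lists and correlations without laminectomy 2 and normal 1 were added after seeing the data. The number of arrays limits precision, and the file holds no detection calls. No arrays were identical (highest correlation of any 2 arrays 0.843).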

Additional observations from a re-analysis of the deposited data

How the results depend on the processing

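For contused against uninjured cord, all groups included, 2 of 17 probe sets passed (0.319% of all), and 2 passed with quantile normalization, median centring, log2(signal + 32), only the compared groups or array weights. There were 3 of 13 among probe sets in the upper part of mean signal and 3 with trend and robust settings. Averaged by gene, 0 of 7 genes passed. The count was 0 without laminectomy 2 and normal 1 together, 0 against laminectomy alone, 1 against normal alone, and from 0 to 2 with 1 array left out. Contusion minus normal went from 0 to 1 in the upper part of mean signal (Slc4a4 1372479_at, adjusted p = 0.0375). In contused against uninjured cord 0.254% of all probe sets passed without laminectomy 2 and normal 1 together. For the other settings here and in the next paragraph the share of all probe sets is not given. Those counts alone do not tell a gain or loss among the members from one over all probe sets.

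Of the comparisons chosen after seeing the data, BSO minus uninjured went from 0 to 1 with log2(signal + 32), with the upper part of mean signal and with trend and robust settings (Aqp4 1372190_at each time). Tempol minus uninjured went to 1 with trend and robust settings (the same probe set) and X-ray minus uninjured to 1 with array weights (Glul 1367633_at). No other count changed by over 1.5 times. The 48 differences at unadjusted p under 0.05 kept their sign in all 1499 alternative values, with 31 calls lost and 8 gained. Of the other 224 differences, 99 changed sign at least once.

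Replicate numbers in the labels did not pair the samples: deviations of same-numbered arrays correlated at -0.20 to 0.20 over 71 pairs, and others at -0.20 to 0.23 over 140. With replicate number as a block 2 of 17 passed and 71 of all probe sets against 99. A group of 2 that loses 1 array rests on the assumption that the lone array varies like the others. With 2 or 3 arrays a group, dim probe sets such as those of Slc1a2 leave intervals of several log2 units.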
